A study of Mus musculus with 11 samples.

Results

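Polycomb group genes encode the subunits of a pair of chromatin complexes that keep genes silent, and 10 of them were followed through male germ cell development: Ezh1, Ezh2, Eed, Suz12, Rnf2, Ring1, Bmi1, Pcgf6, Cbx2 and Scml2. They were chosen by gene symbol, and all 10 were found among the 20265 genes of the autosomes, X and Y in the table. All 10 passed the filter on low counts. The cells came from the testes of 3 adult, untreated mice that all carried a Dazl-GFP reporter, a green fluorescent protein under control of the germ cell gene Dazl, and live GFP-positive cells were sorted singly into plate wells. SORT-Seq reads the 3' ends of polyadenylated RNA and counts UMIs (unique molecular identifiers), random barcodes of which each captured molecule gets one. Mouse 1 gave 8 libraries by the CEL-seq1 chemistry, mouse 2 gave 1 library and mouse 3 gave 2 libraries by CEL-seq2, so the chemistry and mouse 1 cannot be told apart. The mouse 3 libraries are labelled gate (called gate-sorted below) and index, with medians of 21239 and 9201 UMIs in the wells kept. The replicate is the mouse (n = 3), and every comparison is between stages within the same mice.

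PRC2 (Polycomb repressive complex 2) places methyl groups on a lysine of the histone H3 tail through EZH1 or EZH2, held by the core subunits EED and SUZ12. PRC1 attaches ubiquitin to histone H2A through RING1 (RING1A) or RNF2 (RING1B), each paired with a PCGF subunit. CBX proteins of the canonical form of PRC1 read the methyl mark, while variant PRC1, such as the form built on PCGF6, reaches chromatin by other means. In the testis PRC2 is required for spermatogenesis, and SCML2 is a germ cell Polycomb protein, encoded on the X chromosome, that binds PRC1. The X and Y are silenced during the pachytene stage of meiosis.

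Of 1920 wells, 1448 held at least 1000 UMIs and were kept as cells (545, 321 and 582 in mice 1, 2 and 3), with a median of 13792.5 UMIs. Of these, 5 wells rich in spermatid RNA were set aside, and 1248 cells fell into 13 ordered stages. Stage 1 was undifferentiated spermatogonia-like (57 cells), stages 2 and 3 differentiating spermatogonia-like (138 and 163), stages 4 and 5 preleptotene-like (70 and 86), stages 7 to 9 leptotene and zygotene-like (108, 144 and 113) and stages 10 to 13 pachytene-like (71, 107, 66 and 72). The class names below stand for these cells. Within the class of stages 7 to 9, X-linked UMIs per 100 autosomal UMIs fell from 2.06 at stage 8 to 0.341 at stage 9. Per 1000000 autosomal UMIs, stage 9 held 7682 of the summed leptotene and zygotene markers and 5932 of the pachytene markers. The class therefore joins stages before and after the fall of the X, and its comparisons average over that fall. Stage 6 (53 cells, led by Rbpms2, Dmc1, Eml5 and Prdm9) had no name and entered no class. Stages 11 and 12 lay at almost the same pseudotime (0.948 and 0.949), and mouse 2 gave only 8 cells to stage 12, so their order is not resolved. Levels are given as CPM, UMIs of a gene scaled to 1000000 autosomal UMIs in the sum of a mouse's cells of a stage, as the mean ± SD of 3 mice. Dazl was present in every stage, with means between 261 and 3698 CPM, as was the germ cell helicase Ddx4, between 301 and 1135. The summed level of 8 Sertoli cell markers, none of them at 0, lay between 3.23 and 143 CPM except at stage 5, where it was 498 and Clu was a leading gene. The summed level of the 7 round spermatid markers, all detected, was 39.1 at stage 1 and 327 at stage 13, and 6 elongating spermatid markers were highest at stages 5 and 7 (247 and 248). The Leydig, peritubular myoid, endothelial and blood cell lists stayed at or below 18.8 at each stage, with the blood gene Hba-a1 at 0. What these signals contribute to the values below was not tested. The Polycomb and HOX genes took no part in making the stages.

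A change is the log2 fold change ± SE fitted with edgeR's quasi-likelihood test, the SE being derived from the F statistic, with p adjusted over 11139 genes. One UMI stands for a captured molecule, so levels were not divided by gene length, and capture may still differ between genes. The comparisons share samples and are not independent of each other. These levels are shares of a cell's RNA, and the amount of RNA changed along the path: relative to added spike-in RNA (ERCC), autosomal UMIs were at 0.253 times the stage 1 value at stage 7 and at 3.35 times at stage 13. Scaling the fit to the spike-ins moved the median of all genes between stages 1 and 13 by 1.46 (log2), and leaving out edgeR's TMM scaling moved it by -0.33.

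All 10 genes changed over the stages (F test over all stage terms), as did 96.3% of all genes tested, so this count does not set them apart. Between stage 1 and stage 13, Ezh2, Ring1, Pcgf6 and Rnf2 rose and Ezh1, Eed, Cbx2 and Scml2 fell, while Bmi1 and Suz12 did not pass the test. Over all genes, 74.7% were called in this comparison, 35.6% higher and 39.2% lower. The falls of Ezh1 and Eed were falls in share: scaled to the spike-ins their fitted differences were 0.56 and 0.28 (adjusted p = 0.0576 and 0.288, edgeR). Suz12 and Bmi1 were then called higher, by 1.31 and 1.20. Cbx2 and Scml2 fell on both scales (-3.18 and -4.13 against the spike-ins), and Ezh2, Ring1, Pcgf6 and Rnf2 rose on both (3.53, 3.58, 2.91 and 2.89). On the spike-in scale 62.4% of all genes were called higher and 19.1% lower.

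**Figure D1:**
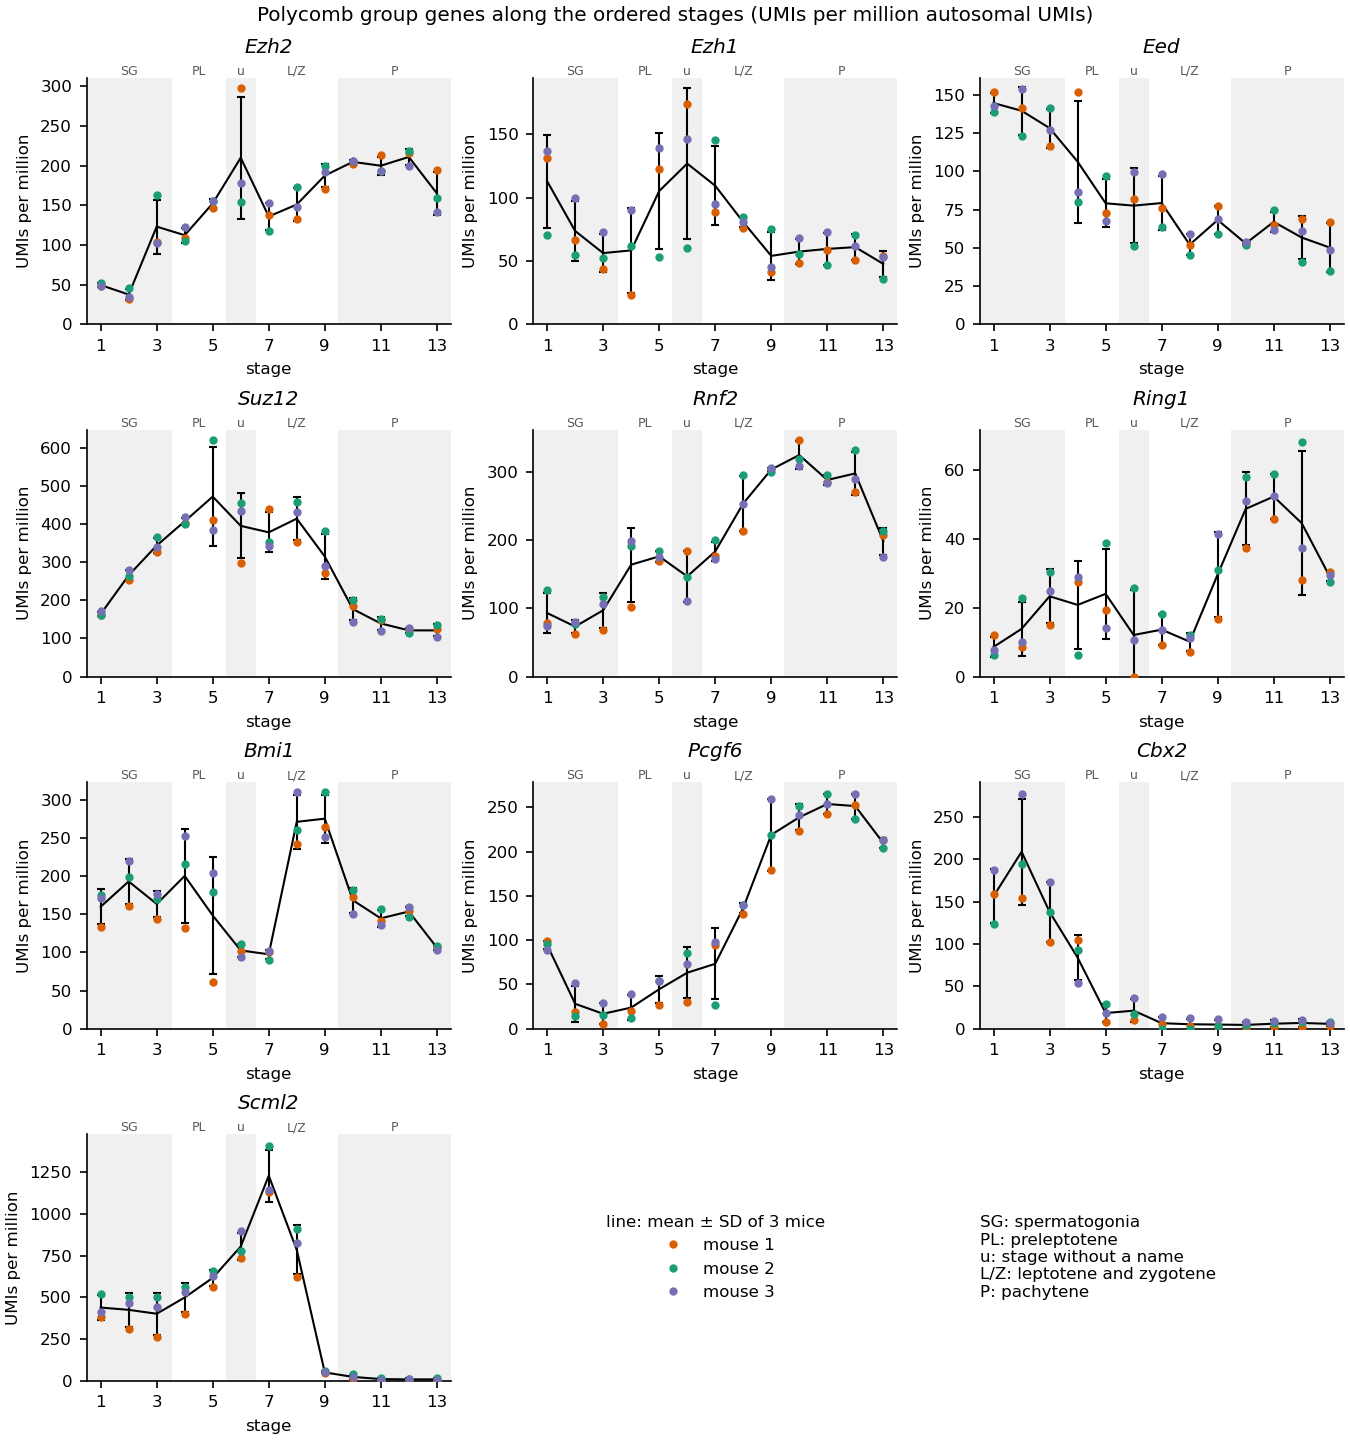
Levels of the 10 genes (CPM) by stage, with a point for each mouse and a line for the mean ± SD of 3 mice. Scml2 climbs to 1228 at stage 7 and is at 50.5 at stage 9, Cbx2 is at 209 at stage 2 and 6.55 at stage 7, and Pcgf6 has a low of 16.8 at stage 3 between 94.7 at stage 1 and a pachytene plateau.

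The stretches before the starts of 4 genes are shown because Ezh1 and Ezh2 trade places in share, Pcgf6 has the widest range among the genes that rose, and Suz12 peaks in between. RefSeq (GRCm38.p6) gave a window for 9 of the 10 members. The 250 bases before the annotated start are printed 5′ to 3′ on the gene's strand, with matches to the searched words in capitals.
Ezh2: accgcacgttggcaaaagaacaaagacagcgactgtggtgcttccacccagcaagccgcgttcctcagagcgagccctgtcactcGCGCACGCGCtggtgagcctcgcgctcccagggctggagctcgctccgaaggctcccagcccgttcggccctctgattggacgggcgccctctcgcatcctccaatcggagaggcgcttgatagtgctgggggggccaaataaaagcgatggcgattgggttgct
Ezh1: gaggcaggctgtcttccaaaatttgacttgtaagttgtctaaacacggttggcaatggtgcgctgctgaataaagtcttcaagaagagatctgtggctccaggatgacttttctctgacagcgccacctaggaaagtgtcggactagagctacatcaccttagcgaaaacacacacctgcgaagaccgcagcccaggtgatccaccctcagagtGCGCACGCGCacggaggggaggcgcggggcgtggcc
Pcgf6: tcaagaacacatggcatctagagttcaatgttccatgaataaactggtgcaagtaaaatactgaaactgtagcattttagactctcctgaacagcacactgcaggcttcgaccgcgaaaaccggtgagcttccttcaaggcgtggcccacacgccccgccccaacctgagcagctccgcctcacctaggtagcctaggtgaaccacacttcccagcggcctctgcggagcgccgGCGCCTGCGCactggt
Suz12: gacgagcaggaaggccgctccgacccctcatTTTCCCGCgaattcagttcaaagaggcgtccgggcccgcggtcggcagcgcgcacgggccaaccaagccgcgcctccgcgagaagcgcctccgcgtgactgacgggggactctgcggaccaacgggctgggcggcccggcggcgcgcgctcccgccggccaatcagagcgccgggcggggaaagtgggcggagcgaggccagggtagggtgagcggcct
The windows lie at chr6:47595031-47595280 (minus strand) for Ezh2, chr11:101226464-101226713 (minus) for Ezh1, chr19:47050907-47051156 (minus) for Pcgf6 and chr11:79992856-79993105 (plus) for Suz12. RefSeq's start of Ezh2 lies inside the gene as annotated for the positions below, so its window does too, while the other 3 windows end just before the annotated gene. The capitals in Ezh2, Ezh1 and Pcgf6 match a word bound by the factor NRF1 (GCGC, any base, then TGCGC) on one strand or the other, with first bases at -165, -36 and -16 from the start. This word was found in 4.6% of the 32544 promoter windows of the table, each searched on both strands over 300 bases. The capitals in Suz12 match an E2F word (TTTGGCGC, TTTCCCGC, TTTCGCGC or TTTGCCGC, 2.3% of windows) at -219, and Ezh2 holds one just after its start, outside the printed stretch. Of the 9 windows Bmi1's alone held the E-box CACGTG (7.2% of windows), and none held CNCCTCAG, a word bound by STRA8 (8.0%), or the MYB word TAACNG (23.4%). Among the 9, Scml2's window (chrX:161162500-161162749) lies well inside its annotated gene. GC content of the printed stretches was 63.6% in Ezh2, 55.2% in Ezh1, 56.0% in Pcgf6 and 73.6% in Suz12, and the median over all promoter windows was 52.4%. The matches describe letters and show no binding.

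Ezh2, the PRC2 methyltransferase that is abundant in dividing cells, lies on chromosome 6 (GRCm38, 47530139 to 47595341). It was low in the first spermatogonia: 47.8, 52.4 and 48.5 CPM at stage 1 in mice 1, 2 and 3, 104, 162 and 103 at stage 3, and 202, 206 and 206 at stage 10. Every value from stage 3 on lay above every value of stages 1 and 2. By class it stood at 70.1 ± 14.5 in spermatogonia, 132 ± 6.13 in preleptotene, 158 ± 9.75 in leptotene and zygotene and 195 ± 10.6 in pachytene cells, with no overlap between consecutive classes. The climb was not steady by stage. Stage 6, which is in no class, was at 210 ± 76.5, with mouse 1 at 297 from 29 UMIs. Each mouse was lower at stage 7 (136 ± 17.2), and stage 13 was at 165 ± 26.7. Ezh2 rose from spermatogonia to preleptotene cells by 1.05 ± 0.13 (adjusted p = 1.75e-08, edgeR) and to leptotene and zygotene cells by 1.45 ± 0.10 (7.05e-16), and from there to pachytene cells by 0.46 ± 0.08 (5.9e-06). The first step depends on where the stages are divided, at 1.93 with the stages as first made and 2.13 without alignment of the mice. Against the spike-ins it was -0.11 (adjusted p = 0.556, edgeR), and the step to pachytene was 2.74. From stage 1 to stage 13 Ezh2 rose by 2.07 ± 0.17 (4.3e-14), 4.21-fold.

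Ezh1, its paralogue, which many non-dividing cells keep, lies on chromosome 11 (101191115 to 101226463). It was at 132, 70.9 and 137 CPM at stage 1 in mice 1, 2 and 3, at 56.3 ± 14.8 at stage 3 and at 127 ± 59.6 at stage 6. The high at stage 6 rests on mice 1 and 3 (174 and 147, against 60 in mouse 2), while mouse 2 had its highest value, 145, at stage 7. At stage 13 the values were 54.1, 36.2 and 53, below every value of stage 1. This fall was -0.91 ± 0.23 (adjusted p = 0.000489, edgeR). It did not pass the test with stages made without alignment of the mice (-0.65, adjusted p = 0.0533) or with reads in place of UMIs (-0.57, adjusted p = 0.274). Class levels were 81 ± 21.9 in spermatogonia, 81.9 ± 29.6 in preleptotene, 81.5 ± 17.9 in leptotene and zygotene and 56.5 ± 6.46 in pachytene cells, and no class comparison passed the test. With wells of at least 2000 UMIs, and with stages made from even-numbered autosomes, preleptotene cells were called above spermatogonia (0.64 and 0.70), and without TMM pachytene cells were called below leptotene and zygotene cells (-0.40). Against the spike-ins the 3 class differences were called, at -1.25, -0.88 and 2.01.

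The larger share of the pair passed from Ezh1 to Ezh2. Of their UMIs together, Ezh1 made up 73.3%, 57.5% and 73.8% at stage 1 in mice 1, 2 and 3 (exact Clopper-Pearson 95% intervals 63.8 to 81.5, 40.9 to 73 and 65.8 to 80.7). At stage 13 it made up 21.8%, 18.6% and 27.2% (19 to 24.7, 12.8 to 25.6 and 23.9 to 30.6). The intervals cover counting error only, with 40 to 145 UMIs behind each share at stage 1 and 156 to 831 at stage 13. The share changed by -45.7 ± 6.37 percentage points (SD), downward in 3 of 3 mice, and the exact two-sided permutation test gave p = 0.25, the smallest it can give with 3 mice. The mean share was 65.3% at stage 2 and 31.8% at stage 3, so Ezh2 overtook Ezh1 between these spermatogonial stages. The mean share was 44.2% at stage 7, where mouse 2 stood at 55.2% from 29 UMIs, and 21.9% at stage 10.

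Eed, the subunit that binds the methyl mark, and Suz12, the scaffold of the enzyme, took different courses. Eed (chromosome 7, 89954654 to 89980983) was at 137, 135 and 141 CPM in spermatogonia of mice 1, 2 and 3, at 113, 88.7 and 77 in preleptotene and at 68.4, 56 and 75.3 in leptotene and zygotene cells. Every mouse was lower in both later classes than any mouse in spermatogonia. The fall was -0.68 ± 0.14 (adjusted p = 0.000144, edgeR) to preleptotene and -0.98 ± 0.12 (8.75e-10) to leptotene and zygotene cells, and the first did not pass the test without mouse 3 (-0.48, adjusted p = 0.072). Pachytene cells, at 56.7 ± 6.47, did not pass the test against leptotene and zygotene cells. From stage 1 to stage 13 Eed fell by 1.14 ± 0.17 (log2, 1.7e-07).

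Suz12 (chromosome 11, 79993106 to 80034123) made an arch. It stood at 161, 160.4 and 171 CPM at stage 1 in mice 1, 2 and 3, at 411, 621 and 384 at stage 5 and at 124, 135 and 104 at stage 13. The highest mean, 472 ± 129.9 at stage 5, owes its height to mouse 2, while mouse 1 was highest at stage 7 (439) and mouse 3 at stage 6 (435). Class levels were 258 ± 9.69 in spermatogonia, 439.6 ± 62.1 in preleptotene, 369 ± 24.7 in leptotene and zygotene and 139.7 ± 14 in pachytene cells. Suz12 rose from spermatogonia to preleptotene cells by 0.73 ± 0.10 (adjusted p = 2.29e-07, edgeR) and to leptotene and zygotene cells by 0.62 ± 0.09 (6.53e-08), and fell from there to pachytene cells by 1.26 ± 0.08 (log2, 5.36e-17). Against the spike-ins each of these turned, to -0.42, -0.27 and 1.02. At stage 13 it lay below stage 1 in 3 of 3 mice without overlap, but the fitted difference of -0.13 did not pass the test (adjusted p = 0.473), and it was called lower without TMM scaling (-0.46, adjusted p = 0.0102).

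Both ubiquitin ligases of PRC1 rose from stage 1 to stage 13. Rnf2 (chromosome 1, 151458004 to 151500955) was at 69.6, 107 and 87 CPM in spermatogonia of mice 1, 2 and 3, 135, 188 and 186 in preleptotene, 232, 265 and 243 in leptotene and zygotene, and 277, 289 and 264 in pachytene cells. Each mouse was higher at each step. Rnf2 rose from spermatogonia to preleptotene cells by 0.90 ± 0.12 (adjusted p = 7.86e-08, edgeR), to leptotene and zygotene cells by 1.56 ± 0.10 (6.7e-18), and from there to pachytene cells by 0.33 ± 0.08 (0.000397). The mice overlapped in the last step, which was not called with a coarser clustering (0.23), without alignment (0.24) or without TMM (0.18), and the first was -0.28 against the spike-ins. Rnf2 was highest at stage 10 (324 ± 20.1) and stood at 198 ± 19.8 at stage 13, 1.49 ± 0.16 above stage 1 (4.54e-11).

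Ring1, its paralogue on chromosome 17 (34020792 to 34024680), had few UMIs: 15 over the 3 mice at stage 1 and 227 at stage 13, and mouse 1 had none at stage 6. Its level was 12, 6.17 and 7.66 CPM at stage 1 in mice 1, 2 and 3 and 30.2, 27.5 and 29.3 at stage 13, with no overlap. Ring1 rose by 2.08 ± 0.38 (adjusted p = 4.96e-06, edgeR) between these stages, and by 1.60 ± 0.21 (1.02e-08) from leptotene and zygotene (17.8 ± 5.88) to pachytene cells (43.6 ± 8.97). Its share of the Ring1 and Rnf2 UMIs was 9.08%, 19.1%, 3.81% and 12.8% at stages 1, 3, 8 and 13. Rnf2 made up the greater part in every mouse and stage.

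**Figure D2:**
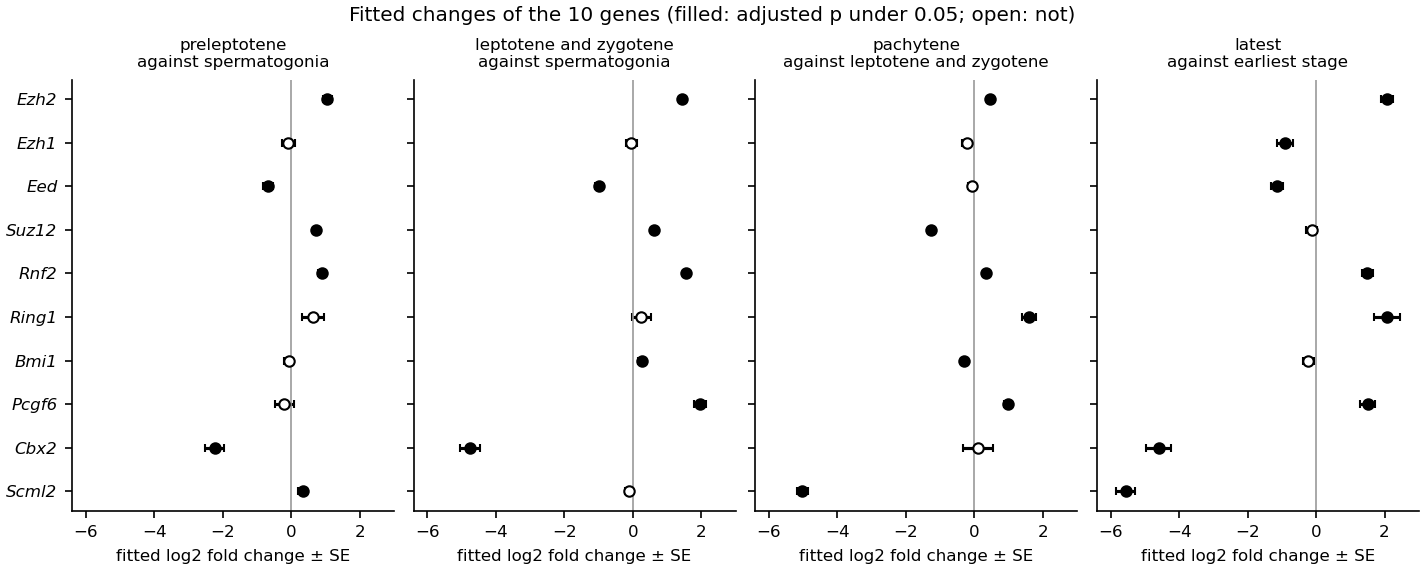
Fitted log2 fold changes ± SE (edgeR, mouse as a block) of the 10 genes in 4 comparisons; filled points passed an adjusted p of 0.05 and open points did not. Cbx2 is at -4.75 in leptotene and zygotene against spermatogonia, Scml2 at -5.03 in the step to pachytene, and Pcgf6 rises in both (1.96 and 0.97).

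PCGF subunits decide which form of PRC1 is built. Bmi1 (PCGF4, canonical PRC1; chromosome 2, 18677018 to 18686629) had a low and a high within early meiotic prophase. It was at 102, 111 and 94.3 CPM at stage 6 in mice 1, 2 and 3, 101, 90.8 and 102 at stage 7, 242, 261 and 311 at stage 8 and 265, 311 and 251 at stage 9. No value of stages 6 and 7 reached those of stages 8 and 9. Mouse 1 was below the others at stage 5 (61.4 against 179.5 and 205). Class levels were 172 ± 22.9 in spermatogonia, 174 ± 68.8 in preleptotene, 215 ± 10.8 in leptotene and zygotene, and 143 ± 5.62 in pachytene cells. The rise from spermatogonia to leptotene and zygotene cells was 0.25 ± 0.10 (adjusted p = 0.0234, edgeR) and the fall from there to pachytene cells -0.31 ± 0.09 (0.00366). The rise missed the test in 11 alternatives, among them the fits without mouse 1 (0.16) and without mouse 3 (0.29), the fall missed it without any one mouse (-0.22, -0.19 and -0.20 without mice 1, 2 and 3), and both turned against the spike-ins (-0.63 and 1.96). Between stages 1 and 13 Bmi1 did not pass the test (-0.23 ± 0.16, adjusted p = 0.186), though each mouse was lower at stage 13, and DESeq2 called it lower (-0.42, adjusted p = 0.00423).

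Pcgf6, the PCGF subunit of a variant PRC1 known to hold germ cell genes silent in embryonic stem cells, lies on chromosome 19 (47033617 to 47050906). It began with 99.1, 95.6 and 89.4 CPM at stage 1 in mice 1, 2 and 3, and stood at 5.25, 15.9 and 29.4 at stage 3, and at 223, 252 and 242 at stage 10. The highest value of stage 3 was below the lowest of stage 1, and every pachytene value was above all of stages 1 to 8. The means ranged 15.1-fold, from stage 3 to stage 11 (254 ± 11.2). Spermatogonia as a class were at 46.6 ± 8.72 and preleptotene cells at 34.2 ± 11.8, which overlapped and did not pass the test. Leptotene and zygotene cells were at 143 ± 20.2, a rise over spermatogonia of 1.96 ± 0.16 (adjusted p = 5.82e-14, edgeR), and pachytene cells were at 238 ± 5.52, a further rise of 0.97 ± 0.12 (3.09e-09). From stage 1 to stage 13 the rise was 1.51 ± 0.21 (3.84e-08).

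Among the 6 PCGF genes, Pcgf6 gave 15.8%, 2.32% and 34.2% of the UMIs at stages 1, 3 and 13, the last being 33.3%, 35.2% and 34.1% in mice 1, 2 and 3. Pcgf5, of another variant PRC1, had the largest mean share at each of the 13 stages, between 34% and 52.9%. Bmi1 gave between 17.4% and 32.5%. Pcgf2, the close relative of Bmi1, gave 16.8% at stage 4 and 0.569% at stage 13, and its level fell by 2.76 ± 0.36 on the log2 scale from stage 1 to stage 13 (adjusted p = 8.14e-09, edgeR).

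Some proteins known to join PCGF6 in its complex are described here, and apart from L3mbtl2 they were singled out after their values were seen, so their directions say nothing about the complex as a whole. E2f6, which binds DNA, fell by 4.21 ± 0.29 (log2, adjusted p = 2.05e-16, edgeR) from stage 1 to stage 13, from 146 ± 19.6 to 6.34 ± 0.128 CPM. Mga, its scaffold, fell by 2.13 ± 0.16 (1.3e-15), from 346 ± 63.3 to 67 ± 34.3. Max, the partner of MGA, fell by 0.80 ± 0.17 (7.81e-05). L3mbtl2, an MBT-domain subunit, rose by 0.87 ± 0.17 (1.52e-05), from 89.6 ± 36.7 to 123 ± 36.6, and was not called without the mouse as a block (0.83, adjusted p = 0.0518).

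Cbx2, a chromodomain reader of the methyl mark that is needed for male sex determination, lies on chromosome 11 (119022962 to 119031270). Its level was 159, 123 and 188 CPM at stage 1 in mice 1, 2 and 3, 154, 195 and 278 at stage 2, 105, 92.6 and 54.1 at stage 4 and 7.68, 29.1 and 18.6 at stage 5. From stage 7 on no mouse was above 14, and mouse 2 had no UMI of Cbx2 at stages 7 and 8. The UMIs behind these values numbered 280, 867, 16 and 40 at stages 1, 2, 5 and 13. Cbx2 fell from spermatogonia to preleptotene cells by 2.23 ± 0.27 (log2, adjusted p = 1.23e-08, edgeR) (-3.61 with the stages as first made) and to leptotene and zygotene cells by 4.75 ± 0.28 (2.03e-18). It was 24.2-fold lower at stage 13 than at stage 1 (8.16e-15). Pachytene cells, at 1.85, 6.57 and 8.80, did not pass the test against leptotene and zygotene cells. Mouse 1, the one with the CEL-seq1 chemistry, was the lowest from stage 9 to stage 13.

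Cbx7, another CBX reader, ended higher than it began. Its levels were 55.7 ± 21.8, 8.08 ± 9.24 and 116 ± 6.33 CPM at stages 1, 7 and 13, a rise of 1.49 ± 0.25 between stages 1 and 13 (adjusted p = 1.55e-06, edgeR) that was not called on reads (1.35, adjusted p = 0.0635).

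**Figure D3:**
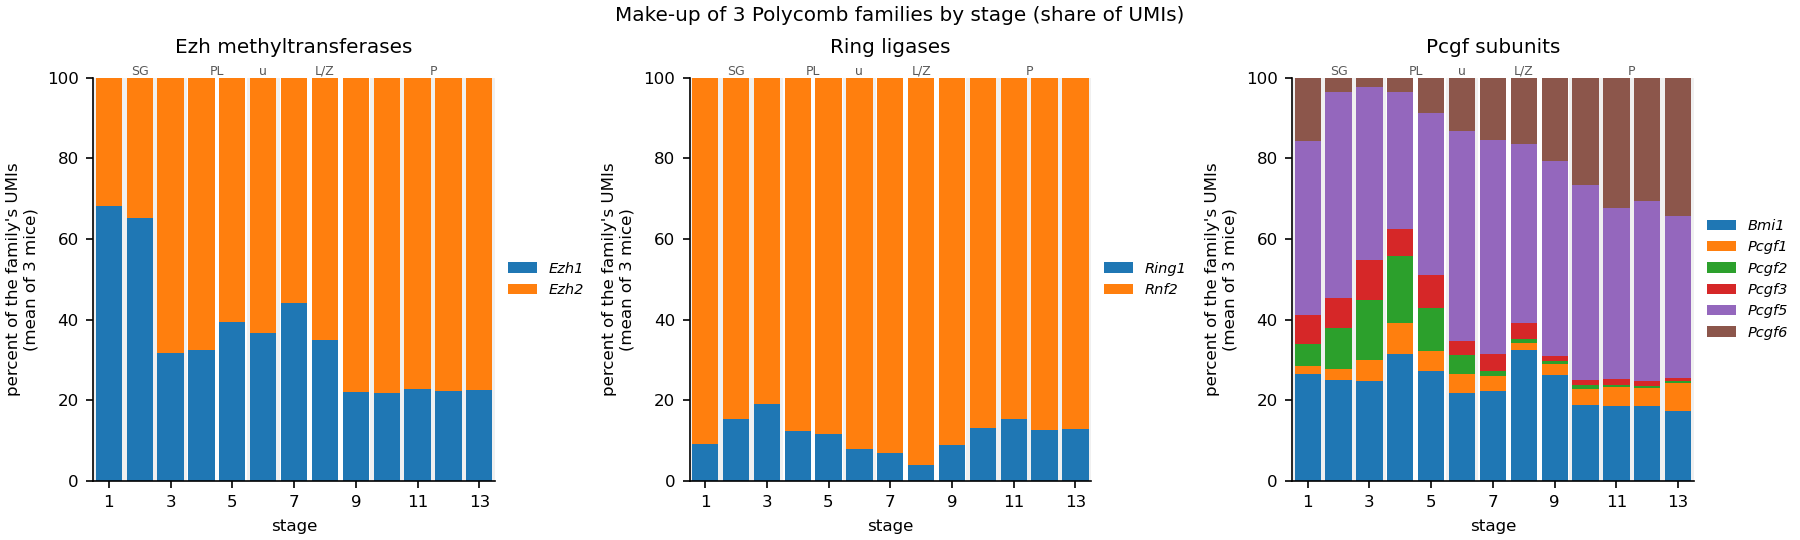
Share of each gene in the UMIs of 3 Polycomb families by stage, as the mean percentage over 3 mice. Ezh1 goes from 68.2% to 22.5%, and Pcgf6 ends at 34.2%, while Rnf2 is the larger part of its pair at every stage.

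Scml2 (X chromosome, 161117193 to 161258213) had the most UMIs of the 10 genes at each of stages 1 to 8 and was among the 4 with the fewest from stage 9 on. It stood at 381, 521 and 414 CPM at stage 1 in mice 1, 2 and 3, at 1133, 1407 and 1145 at stage 7, at 621, 907 and 823 at stage 8, and at 44.2, 56 and 51.2 at stage 9. All mice had their highest value at stage 7, and every value of stages 9 to 13 was below every earlier one. At stage 13 the values were 3.89, 15 and 7.33, from 51 UMIs. Scml2 rose from spermatogonia (422 ± 96.2) to preleptotene cells (558 ± 66) by 0.34 ± 0.14 (adjusted p = 0.0375, edgeR), higher in 3 of 3 mice, with overlap between mice. This rise missed the test in 6 alternatives, among them DESeq2 (0.33, adjusted p = 0.109) and the fit without mouse 3 (0.38, adjusted p = 0.117), and was -0.83 against the spike-ins. Leptotene and zygotene cells were at 688 ± 96, a plain mean of the CPM of stages 7, 8 and 9 in each mouse. The fitted comparison with spermatogonia, which averages the logs of these stages, did not pass the test (-0.12 ± 0.12, adjusted p = 0.39, edgeR). It was called lower with both other clusterings (-0.76 and -0.58), with median-ratio size factors (-0.28), without mouse 1 (-0.22) and against the spike-ins (-1.01). Pachytene cells were at 5.55, 21.6 and 11.6, so that Scml2 fell by 5.03 ± 0.16 on the log2 scale from leptotene and zygotene cells (5.5e-27), and stage 13 was 47.3-fold below stage 1. The drop of Scml2 from stage 8 to stage 9 lay inside the leptotene and zygotene class.

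The X chromosome as a whole was low at the same stages. X-linked UMIs per 100 autosomal UMIs were 2.55 ± 0.246, 3.31 ± 0.320, 2.06 ± 0.264, 0.341 ± 0.114 and 0.201 ± 0.130 at stages 1, 7, 8, 9 and 13. At stage 7 Scml2 was at 280.0% of its stage 1 level and the X at 130.1%, both as shares against autosomal UMIs. Per 1000 ERCC UMIs Scml2 was lower at stage 7 (22.6 ± 14.6) than at stage 1 (33.4 ± 23.2), in each mouse. Scml2 made up 1.74% ± 0.371 of all X-linked UMIs at stage 1, 3.89% ± 1.05 at stage 8 and 0.608% ± 0.429 at stage 13. In mice 1, 2 and 3 it went from 1.35%, 2.09% and 1.77% at stage 1 to 0.113%, 0.860% and 0.852% at stage 13, lower in 3 of 3 mice without overlap. Tested as a share of the summed X-linked UMIs, without TMM, Scml2 fell by 1.88 ± 0.47 (log2, adjusted p = 0.000505, edgeR over 351 X-linked genes). Of those genes 59.3% were called in this comparison, 21.1% higher and 38.2% lower. Mouse 1 had the lowest share at each stage, and without it the value was -1.16 (adjusted p = 0.00116). With size factors from median ratios it was -0.92 (adjusted p = 0.0222), with stages made without alignment -1.14, and without the mouse as a block it did not pass (-1.57, adjusted p = 0.134).

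**Figure D4:**
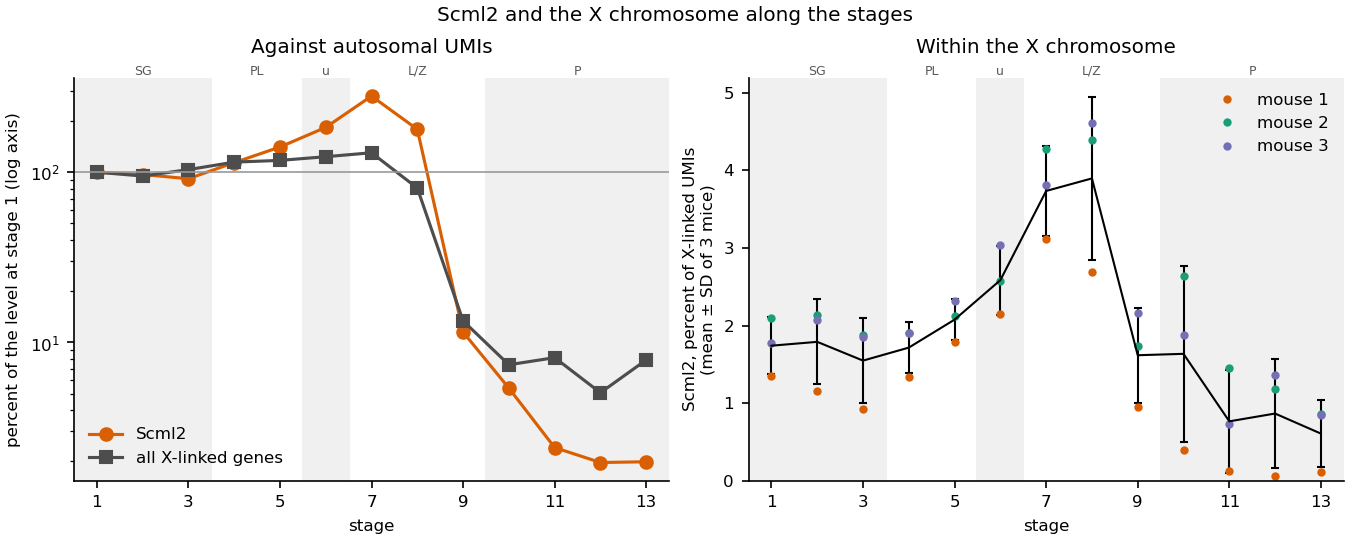
Scml2 and all X-linked genes as a percentage of their stage 1 level (log axis, means of 3 mice), and Scml2 as a percentage of X-linked UMIs, by stage. At stage 9 Scml2 is at 11.5% and the X at 13.4% of the start, and at stage 13 at 1.99% and 7.90%.

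Between spermatogonia and preleptotene cells 6 of the 10 genes were called (Ezh2, Suz12, Rnf2 and Scml2 higher, Eed and Cbx2 lower), beside 45.6% of all genes (18.9% higher, 26.6% lower). Between spermatogonia and leptotene and zygotene cells 7 were called (Ezh2, Suz12, Rnf2, Bmi1 and Pcgf6 higher, Eed and Cbx2 lower), beside 72.9% (32.4% higher, 40.5% lower). At the step to pachytene 7 were called (Ezh2, Rnf2, Ring1 and Pcgf6 higher, Suz12, Bmi1 and Scml2 lower), beside 68.9% (34.5% higher, 34.4% lower). In the last 2 of these, as between stages 1 and 13, the share of members called was close to that of all genes. In the first the count ranged from 4 to 8 over the alternatives. The median log2 fold change of the 10 was -0.18 between stages 1 and 13, beside -0.09 over all genes tested.

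On the spike-in scale most of the 10 genes moved with most genes of the table. Per 1000 ERCC UMIs, Ezh2 was at 3.92 ± 3.06 at stage 1, 2.57 ± 1.89 at stage 7 and 44.7 ± 39.5 at stage 13, and Pcgf6 at 7.76 ± 6.60, 1.54 ± 1.54 and 53.3 ± 39.6. The SDs are wide, so these values were compared within mice, in the fit with the mouse as a block. There 9 genes were higher in pachytene than in leptotene and zygotene cells and 1, Scml2, was lower (-2.75), beside 86.3% of all genes higher and 3.15% lower, with a median difference of 2.17 (log2). In preleptotene cells 7 were lower than in spermatogonia and none was called higher, beside 78.5% of all genes lower and 1.52% higher. These shares lie near those of all genes, so the counts do not set the 10 genes apart. Whether every well held the same amount of spike-in RNA was not tested.

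**Figure D5:**
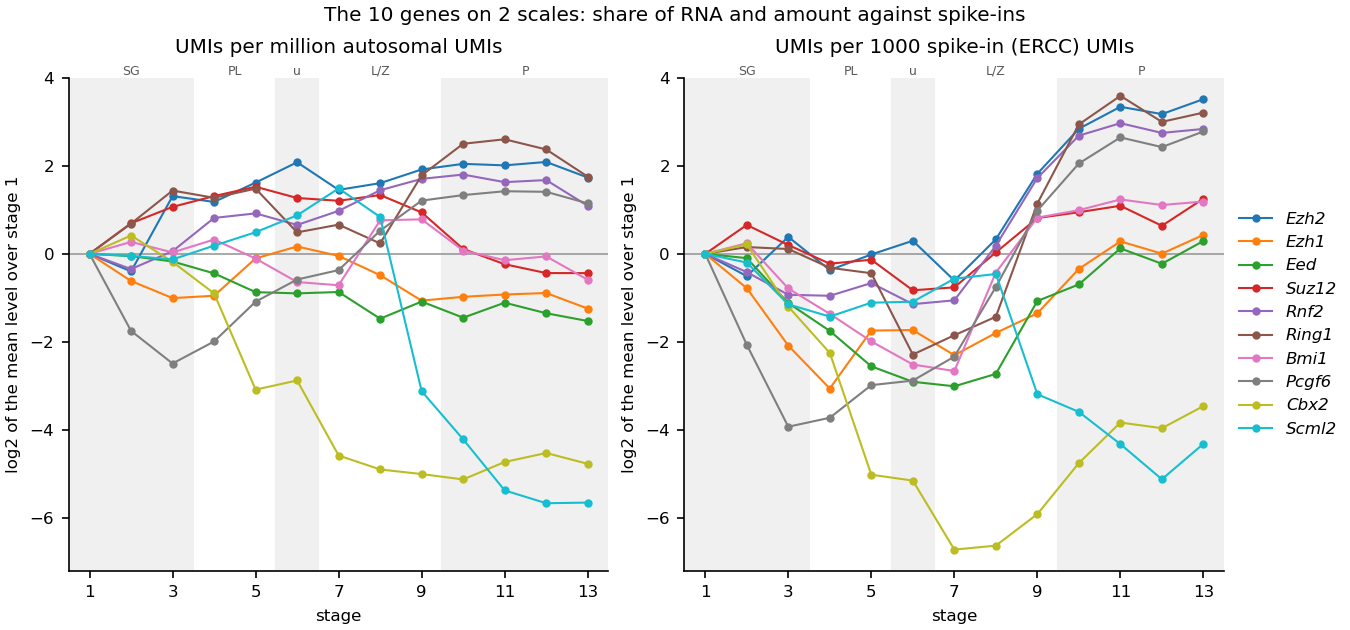
Mean levels of the 10 genes against their stage 1 level (log2 axis, means of 3 mice), as a share of autosomal UMIs and per spike-in UMIs, by stage. Against the spike-ins all genes but Cbx2 and Scml2 end above their start, while as a share Ezh1, Eed, Suz12 and Bmi1 end below it.

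The other Polycomb-related genes were read from lists of 55 genes, of which 51 passed the filter. Between stage 1 and stage 13, 15 were called higher, 27 lower and 9 did not pass, beside 35.6% of all genes higher and 39.2% lower, against which the counts of the single lists below are also to be read. The 51 had a median log2 fold change of -0.63 beside -0.09 over all genes. Of the 10 PRC2 accessory subunits tested, 4 were higher and 6 lower. Phf1, which brings PRC2 to chromatin, rose by 2.49 ± 0.20 (adjusted p = 2.4e-14, edgeR), from 47.1 ± 20 to 211 ± 56.2 CPM, and Lcorl rose by 2.13 ± 0.17 (2.89e-14). Rbbp7, a histone-binding subunit encoded on the X, fell by 5.60 ± 0.27 (log2, 2.95e-21), from 308 ± 25.9 to 4.91 ± 2.18. Lcor was also called lower, with 17 UMIs at stage 1 and 2 at stage 13, and not with sums of at least 20 cells (adjusted p = 0.299). AU022751, now named Ezhip and known as an inhibitor of PRC2, is X-linked and was singled out after its values were seen. It was at 27.6 ± 4.12 at stage 1, 326 ± 71.6 at stage 7 and 1.71 ± 0.830 at stage 13, and it rose from spermatogonia to preleptotene cells by 1.73 ± 0.18 (3.86e-10).

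Of 12 further PCGF, CBX and PHC subunits, 4 were higher, 4 lower and 4 not called. Pcgf1 rose by 1.98 ± 0.30 (adjusted p = 2.32e-07, edgeR), from 13.2 ± 1.84 to 41.5 ± 2.06 CPM. Cbx8 fell by 4.69 ± 0.55 (log2, 5.78e-10), with 61 UMIs at stage 1 and 7 at stage 13. Of the 13 variant PRC1 subunits, 1 was higher (L3mbtl2), 9 lower and 3 not called. Bcor and Bcorl1, both X-linked, were called lower, with 48 and 46 UMIs at stage 1 and 1 each at stage 13.

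Of the 13 enzymes that oppose Polycomb marks and their partners, 3 were higher, 8 lower and 2 not called. Foxk2 rose by 1.74 ± 0.20 (adjusted p = 4.26e-10, edgeR) and Asxl2, a partner of the deubiquitinase BAP1, by 1.32 ± 0.35 (0.000736), which was not called without the mouse as a block (1.16, adjusted p = 0.161). Kdm6a, the X-linked demethylase that removes the PRC2 mark, fell by 3.57 ± 0.70 (log2, 1.65e-05). It stood at 13 ± 4.78 CPM at stage 1 and 199 ± 55.3 at stage 6, and rose from spermatogonia to preleptotene cells by 2.22 ± 0.31 (1.96e-07). Its Y-linked relative Uty fell by 2.48 ± 0.57 (0.000167), and did not pass against the spike-ins (-1.03, adjusted p = 0.107). Of 6 other Polycomb-related proteins 3 had enough counts, and these 3 rose, with Sfmbt1 at 1.72 ± 0.18 (1.54e-11) and the DNA-binding factor Yy1 at 0.70 ± 0.15 (8.76e-05), the latter not called without TMM (0.37, adjusted p = 0.0626). Of the X-linked genes named here, a change relative to the X as a whole is reported for Scml2 alone.

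The genes most like each member in their course were found by Pearson's r of log2(CPM + 10), centred per mouse, over 39 sums of mouse and stage. The sums share libraries and mice, so r is a description. For Scml2 the 3 most like were Lamp2 (r = 0.98) and Tktl1 (0.98) on the X and Eif2s3y (0.98) on the Y. For Cbx2 they were Mtap (0.97), Rcor2 (0.97) and Csnk1e (0.97), and Csnk1e (0.90) was also among the 3 most like Eed, after Dcakd (0.92). For Pcgf6 they were Pam16 (0.95), Rnf6 (0.95) and Cebpg (0.93), and for Ezh2 Smc4 (0.94), Krcc1 (0.92) and Dpep3 (0.90). The most like were Nucb1 (0.93) for Suz12, Stk16 (0.92) for Rnf2 and Fam213a (0.88) for Ring1. Ezh1 and Bmi1 had lower highest values, 0.75 (Dock4) and 0.80 (Fam192a). Among the members themselves, Eed and Cbx2 were the most alike (0.89), followed by Ezh2 with Rnf2 (0.82) and Suz12 with Scml2 (0.82), and Rnf2 and Cbx2 were the most opposed (-0.89).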

How the data were processed

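The deposited table holds UMI counts per gene and well, made by the authors with BWA 0.7.10 on mm10, per the submitters' processing notes; the counting tool and annotation are not given in the sources used here. The deposited read counts of the same wells served as an alternative. The 11 libraries held 16682671, 5866174 and 18032562 UMIs in mice 1, 2 and 3. Mouse 1 had 4-base UMIs (256 possible) and mice 2 and 3 had 6-base UMIs (4096), and at most 84 UMIs of a member fell in a well.

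Wells of at least 1000 UMIs were kept, and 5 with over 1% of UMIs from elongating spermatid markers were left out. Stages were made from odd-numbered autosomes without Polycomb or HOX genes: counts scaled to 10000, 1500 variable genes, Seurat 5.3.0 anchors over 15 dimensions, 15 principal components, 15 neighbours, Leiden resolution 1.0 and diffusion pseudotime over 5 components (scanpy 1.11.5). A stage needed at least 10 cells in at least 2 mice, which a cluster of 41 wells did not have. Clusters of 81 and 73 wells met this rule and were left out for low depth, with medians of 2041 and 2033 UMIs. Together 195 wells had no stage. Doublets were not called. The staging was revised after clusters and their order were seen, and 4 versions were made; the settings of the first are given as an alternative chosen after seeing the data, as is keeping the 5 wells. Where the stages are divided depends on these settings.

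Counts were summed per mouse and stage (39 sums of 97618 to 3919583 autosomal UMIs) and fitted with edgeR 4.0.16 (quasi-likelihood, filterByExpr, TMM, mouse and stage) with Benjamini-Hochberg adjustment over all genes tested; classes are means of stage terms. The samples pair by mouse, since every stage comes from the same 3 animals. DESeq2 1.42.0 was an alternative. The check on simulated data covered only the edgeR comparison of the latest with the earliest stage, and its outcome is not given here. The class comparisons, the F test over all stage terms, the fit of X-linked genes, the permutation test and DESeq2 were not checked in this way. Beyond the members, up to 2 genes with the largest rise and 2 with the largest fall of each list were named, and the 3 genes most like each member. One gene of the lists is not reported here. The members and lists were chosen with earlier results of these data known. The sequences are RefSeq's (GRCm38.p6). Gene positions are those of GRCm38.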

Additional observations from a re-analysis of the deposited data

Results flagged for a closer look

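No comparison above uses the 195 wells of no stage, and all 10 genes were detected in them, which is why their values are listed. Over 496454 autosomal UMIs, Ezh2 was at 133 CPM (UMIs scaled to 1000000 autosomal UMIs), Ezh1 at 56.4, Suz12 at 161, Rnf2 at 218, Ring1 at 30.2, Bmi1 at 137, Pcgf6 at 141, Cbx2 at 58.4 and Scml2 at 113 CPM. Eed, at 38.3 CPM, was below its lowest stage mean of 50.2, and the other 9 genes lay between their lowest and highest stage means. The wells were shallow, with a median of 1641, 2041 and 2033 UMIs in the 3 clusters, and were given no stage. The cluster of 73 wells had pachytene as its best marker match, and the other 2 clusters had none.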

How the results depend on the processing

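The comparisons are named by the later class; preleptotene and leptotene and zygotene are set against spermatogonia, and pachytene against leptotene and zygotene. The counts of members called stayed within 1.5 times of those reported under every alternative run, at 9 to 10 for any change, 7 to 10 for stage 13 against 1, 4 to 8 in preleptotene, 6 to 9 in leptotene and zygotene and 6 to 10 in pachytene. The Ezh1 share changed by -49.1 to -40.7 points over the alternatives. The fit of Scml2 as a share of X-linked UMIs used no TMM, and it was not run with spike-in scaling or DESeq2. Its value was -2.40 to -1.16 without each mouse in turn. With no replicate block it was -1.57 (adjusted p = 0.134, edgeR), the only alternative that took it past the threshold. Without the block the calls of Bmi1 in leptotene and zygotene (0.24), Scml2 in preleptotene (0.33), L3mbtl2 and Asxl2 were lost too, and no other named call changed. Changes of sign in results that passed the test came from scaling to the spike-ins alone; all other sign changes concern fitted differences that had not passed it. With scaling to the spike-ins, values of the opposite sign were in stage 13 against 1 Ezh1 0.56, Eed 0.28, Suz12 1.31 and Bmi1 1.20, in preleptotene Ezh2 -0.11, Suz12 -0.42, Rnf2 -0.28, Ring1 -0.49 and Scml2 -0.83, in leptotene and zygotene Suz12 -0.27, Ring1 -0.61 and Bmi1 -0.63, in pachytene Ezh1 2.01, Eed 2.21, Suz12 1.02 and Bmi1 1.96. With wells of at least 2000 UMIs, these were in preleptotene Ezh1 0.64 and Pcgf6 0.46, in leptotene and zygotene Ezh1 0.11 and Ring1 -0.074, in pachytene Eed 0.055. With stages from even-numbered autosomes, these were in stage 13 against 1 Bmi1 0.23, in preleptotene Ezh1 0.70 and Pcgf6 0.60, in leptotene and zygotene Ezh1 0.13. With resolution 0.7, these were in stage 13 against 1 Suz12 0.078, in preleptotene Ezh1 0.46 and Pcgf6 0.24, in pachytene Ezh1 0.020 and Eed 0.048. With resolution 1.4, these were in stage 13 against 1 Suz12 0.036, in preleptotene Ezh1 0.036 and Pcgf6 0.12, in pachytene Ezh1 0.069 and Eed 0.12. With no alignment of the mice, these were in preleptotene Ezh1 0.39 and Pcgf6 0.14, in pachytene Eed 0.084. With the 5 spermatid-rich wells kept, these were in stage 13 against 1 Bmi1 0.084, in preleptotene Ezh1 0.33 and Pcgf6 0.033, in pachytene Cbx2 -0.035. With the stages as first made, these were in stage 13 against 1 Bmi1 0.21, in preleptotene Ezh1 0.38 and Pcgf6 0.054, in pachytene Cbx2 -0.0039. With no TMM, these were in preleptotene Ezh1 0.0074 and Bmi1 0.016, in pachytene Cbx2 -0.11. With read counts, these were in stage 13 against 1 Suz12 0.043, in preleptotene Ezh1 0.15, in leptotene and zygotene Ezh1 0.32, in pachytene Eed 0.029. With no replicate block, these were in leptotene and zygotene Ezh1 0.031. With the gate-sorted library of mouse 3 left out, these were in leptotene and zygotene Ezh1 0.043 and Ring1 -0.14. With no filter on low counts, these were in stage 13 against 1 Suz12 0.076, in pachytene Eed 0.12. With collision-corrected UMIs, these were in pachytene Eed 0.0072. With sums of at least 20 cells, these were in pachytene Cbx2 -0.070. Without each mouse in turn, the ranges of values that changed sign were Ezh1 in preleptotene -0.25 to 0.071, Ezh1 in leptotene and zygotene -0.20 to 0.18, Ezh1 in pachytene -0.33 to 0.078, Eed in pachytene -0.021 to 0.10, Suz12 in stage 13 against 1 -0.11 to 0.036, Ring1 in leptotene and zygotene -0.029 to 0.48, Bmi1 in stage 13 against 1 -0.28 to 0.011, Bmi1 in preleptotene -0.28 to 0.16, Cbx2 in pachytene -0.0094 to 0.65. The cause of these differences was not tested. Ring1 and Cbx2 at some stages, and Lcor, Bcor and Bcorl1 at stage 13, rest on few UMIs, which limits their precision.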

Other observations

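HOX genes, which Polycomb complexes hold silent in many tissues, were read as a group of 36 genes in the same sums. Their summed level was 183 ± 37.1 CPM at stage 1, from 311 UMIs over 33 genes, 17.4 ± 1.56 at stage 4 from 12 UMIs, and 194 ± 10.9 at stage 13 from 1504 UMIs over 20 genes. No test was run on this sum.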
